A study of Mus musculus with 4 samples.

Results

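The mitochondrial respiratory chain is built from proteins of 2 genomes. The genes described here are the protein-coding genes of GENCODE release M21 on mouse build GRCm38 whose symbols start with Nduf, Uqcr, Uqcc, Atp5 or Cox4 to Cox8, together with Sdha, Sdhb, Sdhc, Sdhd and Cycs, and the genes of the mitochondrial genome whose symbols start with mt-Nd, mt-Co, mt-Atp or mt-Cytb. This rule on names, which used no measured value, found 111 genes among the 54838 gene identifiers of the count tables. Of these, 98 lie in the nuclear genome and 13 in the mitochondrial genome. The nuclear genes comprise 38 complex I subunits, 8 complex I assembly factors, 4 complex II subunits, 8 complex III subunits, 3 complex III assembly factors, cytochrome c, 18 complex IV genes and 18 ATP synthase genes. These groups follow the gene symbols. Ndufa4 and its relative Ndufa4l2 are therefore counted with complex I, although Ndufa4 is known as a subunit of complex IV. The mitochondrial genes comprise 7 of complex I, 1 of complex III, 3 of complex IV and 2 of the ATP synthase.

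RNA sequencing was done on a p300 knock-in line and on the line it was made from. The knock-in line, MLC460, carries monomeric enhanced green fluorescent protein fused by CRISPR/Cas9 to the N-terminus of endogenous p300, a histone acetyltransferase and transcriptional coactivator. It was set against the parental wild-type line, mouse E14 embryonic stem cells (E14Tg2a.4) of strain 129/Ola, and both lines were grown with serum and leukemia inhibitory factor on gelatin. Each line gave 2 libraries, and only 1 knock-in line was sampled, so an effect of the tag and a difference that arose while the line was derived cannot be told apart.

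The respiratory chain passes electrons from NADH through complex I, or from succinate through complex II, to coenzyme Q, then through complex III and cytochrome c to complex IV, which reduces oxygen. Complexes I, III and IV pump protons, and the ATP synthase uses the resulting gradient to make ATP. Complexes I, III and IV and the ATP synthase mix subunits made in the cytosol from nuclear genes with subunits made inside the organelle from mitochondrial genes, while complex II and cytochrome c come from the nucleus alone. Mitochondrial mRNAs are cut out of long transcripts of both strands of the circular genome.

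Each library held 18946731 to 26553998 counts on genes. The 10 markers of pluripotent stem cells were all detected, with summed levels of 6845 and 6427 CPM (counts scaled by TMM to a common library total) in the knock-in libraries and 6243 and 6331 CPM in the wild-type libraries. Summed levels of the other marker lists were lower, at 22.2 and 23.8 CPM in knock-in against 36.0 and 39.1 CPM in wild-type for 7 fibroblast markers, with 1 of the 7 at 0 throughout, and at 9.57 and 7.92 CPM against 9.73 and 9.08 CPM for 7 primitive endoderm markers. For 6 muscle and heart markers the sums were 5.46 and 5.84 CPM in knock-in and 6.97 and 7.04 CPM in wild-type. Of 5 testis markers, 4 had no count. The second wild-type library differed from the other 3 by a trend with transcript GC content, which is described below for the chain genes.

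The mitochondrial genome contributed a similar share of mRNA counts to the knock-in libraries and an uneven share to the wild-type libraries. The 13 mitochondrial genes held 1.01% and 1.05% of the counts on genes in knock-in 1 and 2, against 1.23% and 0.577% in wild-type 1 and 2. The exact 95% binomial intervals, which cover counting error only, were 1.01% to 1.02% and 1.04% to 1.05% in the knock-in libraries and 1.22% to 1.23% and 0.574% to 0.580% in the wild-type libraries. Both knock-in libraries therefore lay between the 2 wild-type libraries. The 98 nuclear genes of the chain held 1.29% and 1.20% in knock-in, against 1.23% and 1.41% in wild-type, so the library with the lowest mitochondrial share had the highest nuclear share.

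The log2 ratio of mitochondrial to nuclear chain counts was -0.35 and -0.20 in knock-in 1 and 2, against -0.0048 and -1.29 in wild-type 1 and 2. Its mean was -0.27 ± 0.10 in knock-in and -0.65 ± 0.91 in wild-type libraries (SD, n = 2 each), a difference of 0.37 that was smaller than the wild-type spread. An exact two-sided permutation test over the 4 libraries gave p = 1 for this ratio and for the mitochondrial share, and p = 0.667 for the nuclear share. The smallest p this design can give is 0.333. Without wild-type 2 the difference in the ratio was -0.27, and without wild-type 1 it was 1.01, so the direction rested on which wild-type library was used. Counting only mt-Nd1, mt-Nd2, mt-Nd5, mt-Nd6 and mt-Cytb, the log2 ratio was -1.55 and -1.44 in knock-in, against -1.22 and -2.61 in wild-type. These 5 genes have no near-identical annotated copy. The 2 mitochondrial ribosomal RNAs, which are read from the same genome, held 0.0310% and 0.0282% of counts in knock-in, against 0.0395% and 0.0111% in wild-type.

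Among the mitochondrial genes, mt-Co1 (ENSMUSG00000064351, GRCm38 mitochondrial genome, 5328 to 6872), which encodes the catalytic subunit of complex IV, stood highest per length. Its level was 3425 and 3544 CPM per kilobase in knock-in, against 3898 and 1956 CPM per kilobase in wild-type. It held 50.4% and 51.6% of mitochondrial mRNA counts in knock-in, against 50.9% and 52.9% in wild-type. These counts are of reads that map to a single place, and several mitochondrial genes have near-identical nuclear copies, described below. The shares are therefore of counted reads and need not be those of the mRNA pool. Its share of the counts was close to the same in wild-type 2 as elsewhere, although its level there was the lowest of the 4 libraries.

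The complex I genes mt-Nd1 (2751 to 3707) and mt-Nd2 (3914 to 4951) and the complex III gene mt-Cytb (14145 to 15288), which encodes the subunit that holds the quinone sites, came next. For mt-Nd1 the level was 1567 and 1544 CPM per kilobase in knock-in, against 1737 and 625 CPM per kilobase in wild-type. For mt-Cytb it was 1308 and 1252 CPM per kilobase in knock-in, against 1393 and 856 CPM per kilobase in wild-type. The ordering of the 2 genes in wild-type 2 was thus the opposite of that in the other 3 libraries. As shares of mitochondrial mRNA counts, mt-Nd1 held 14.3% and 13.9% in knock-in against 14.05% and 10.5% in wild-type, while mt-Cytb held 14.3% and 13.5% in knock-in against 13.5% and 17.1% in wild-type.

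The gene mt-Nd6 (13552 to 14070), a complex I subunit and the lone member read from the other strand of the mitochondrial genome, had the widest gap between the wild-type libraries among the 10 mitochondrial genes tested. It had 71.3 and 64.6 CPM in knock-in, against 79.6 and 15.98 CPM in wild-type. The log2 ratio of wild-type 2 to wild-type 1 was -2.32 for mt-Nd6, -1.83 for mt-Nd2, -1.48 for mt-Nd1, -0.99 for mt-Co1 and -0.70 for mt-Cytb. Between the knock-in libraries the log2 ratio of knock-in 2 to knock-in 1 was -0.14 for mt-Nd6 and -0.021 for mt-Nd1. The last 14 bases of mt-Nd6 overlap mt-Nd5 on the opposite strand, and unstranded counting sets aside reads there. Elsewhere in mt-Nd6 the counts take in reads of either strand, so its level need not be that of its own strand alone.

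No mitochondrial gene passed the test between the lines. All 10 tested had a positive log2 fold change (knock-in over wild-type), from 0.098 to 0.50 with a median of 0.23, and in all 10 both knock-in libraries lay between wild-type 2 and wild-type 1. For mt-Nd6 the log2 fold change was 0.50 (SE 0.53, edgeR adjusted p = 0.719), and for mt-Nd1 it was 0.40 (SE 0.37, adjusted p = 0.679). It was 0.37 (SE 0.43) for mt-Nd2, 0.25 (SE 0.27) for mt-Co1 and 0.19 (SE 0.22) for mt-Cytb. Without wild-type 2 the median was -0.24, and with a correction for GC content it was -0.10, so the sign of these values followed wild-type 2. Without wild-type 1 the median was 0.86 and 9 mitochondrial genes passed as higher in the knock-in, in a fit in which 32.1% of all genes passed.

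**Figure D1:**
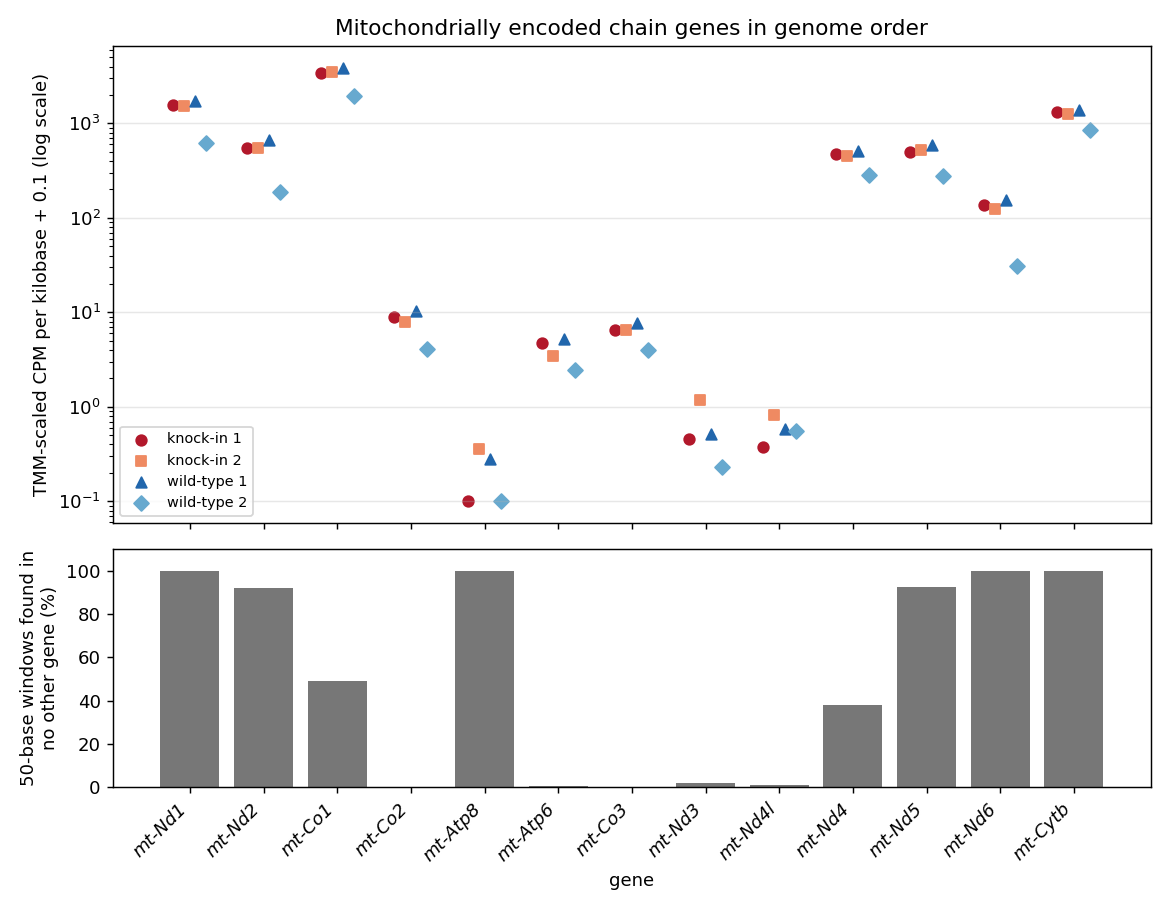
The upper panel plots the level of each of the 13 mitochondrially encoded genes in genome order, as TMM-scaled CPM per kilobase plus 0.1 on a log axis, with 1 point per library (knock-in 1 and 2, wild-type 1 and 2). The lower panel gives the percentage of 50-base windows of each gene that occur in no other annotated gene. The stretch from mt-Co2 to mt-Nd4l lies at or below 10.4 CPM per kilobase in all libraries, and mt-Nd6 has the widest distance between wild-type 2 and the other libraries.

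A run of 6 neighbouring mitochondrial genes had almost no counts in any library. These were mt-Co2 (7013 to 7696), mt-Atp8 (7766 to 7969), mt-Atp6 (7927 to 8607), mt-Co3 (8607 to 9390), mt-Nd3 (9459 to 9806) and mt-Nd4l (9877 to 10173), which encode 2 further subunits of complex IV, both mitochondrial subunits of the ATP synthase and 2 of complex I. They make up 26.3% of the 11403 bases of the 13 genes, but together they held 0.138% and 0.126% of mitochondrial mRNA counts in knock-in and 0.142% and 0.132% in wild-type. The highest of the 6 reached 8.94 and 7.75 CPM per kilobase in knock-in and 10.4 and 3.98 in wild-type. The lowest of mt-Nd1, mt-Nd2, mt-Nd5, mt-Nd6 and mt-Cytb stood at 137 and 125 CPM per kilobase in knock-in and 153 and 30.8 in wild-type, so the 2 sets of genes did not overlap in any library.

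Raw counts show how few reads these were. The gene mt-Co2 had 149 and 99 counts in knock-in and 195 and 60 in wild-type. The ATP synthase gene mt-Atp6 had 77 and 43 counts in knock-in and 96 and 35 in wild-type. The complex I gene mt-Nd3 had 3 and 7 counts in knock-in and 4 and 1 in wild-type. The gene mt-Atp8 had 0 and 1 counts in knock-in and 1 and 0 in wild-type, where a count of 0 allows up to 3 counts, or 0.123 CPM in knock-in 1 and 0.136 CPM in wild-type 2. For mt-Co3 the counts were 121 and 95 in knock-in and 163 and 67 in wild-type. The low level was therefore shared by both lines, and mt-Nd3, mt-Nd4l and mt-Atp8 did not reach the low-count filter of the test.

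Most of the same stretch, with the end of mt-Co1 and the start of mt-Nd4, has annotated near-identical copies in the nuclear genome. Read along the mitochondrial order, 7 annotated pseudogenes on the minus strand of chromosome 1 (24611535 to 24616197) matched the last 483 bases of mt-Co1 (Gm29216), mt-Co2 (Gm28661), mt-Atp6 (Gm10925), mt-Co3 (Gm28437), mt-Nd3 (Gm28438), mt-Nd4l (Gm10222) and the first 876 bases of the 1378 of mt-Nd4 (Gm28439). Over the aligned bases 5 of the 7 were identical, and Gm29216 and Gm28438 each had 1 mismatch, over 483 and 345 bases. Of the 50-base windows of mt-Co2, mt-Atp6, mt-Co3, mt-Nd3 and mt-Nd4l, between 0% and 2.01% occurred in no other annotated gene. The figure was 48.9% for mt-Co1 and 37.8% for mt-Nd4, the genes that are copied in part, and 91.8% to 100% for mt-Nd1, mt-Nd2, mt-Nd5, mt-Nd6 and mt-Cytb. Outside these copies, mt-Nd2 shared 81 windows with Gm13339 and mt-Nd5 shared 73 with Gm4076, and mt-Co1 shared windows with 3 genes, 430 of them with Gm29216. With 100-base windows the 5 copied genes stood at 0.146% to 2.41%. STAR's gene tables count only reads that map to a single place, and the number of mitochondrial reads set aside as mapping to several places was not measured here.

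The difference between mt-Nd3 and its copy is printed because it is the one mismatch in the 345 aligned bases, the last 3 bases of the gene lying outside the alignment. Counted from 1 at the 5′ end of mt-Nd3, it is T3C, with T in the gene and C in Gm28438. The first stretch below is from the plus strand of the mitochondrial genome (9459 to 9501) and the second from the minus strand of chromosome 1 (24613077 to 24613119), both from GENCODE M21 transcripts on GRCm38, with the differing base in capitals. The counts of these 2 rows were 3 and 7 for mt-Nd3 and 105 and 81 for Gm28438 in knock-in, and 4 and 1 for mt-Nd3 and 206 and 33 for Gm28438 in wild-type.
mt-Nd3: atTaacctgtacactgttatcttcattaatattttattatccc
Gm28438: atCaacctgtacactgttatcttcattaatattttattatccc

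Within the 483 aligned bases the difference between mt-Co1 and Gm29216 is A1066T, counted from 1 at the 5′ end of mt-Co1. The first bases of Gm29216 lie outside the alignment and were not compared. The stretches below cover 6390 to 6433 of the mitochondrial plus strand and 24616145 to 24616188 of the minus strand of chromosome 1. Gm29216 had 62 and 52 counts in knock-in and 81 and 45 in wild-type. Counts of mt-Co1 come from the whole gene, of which 31.3% is in the copy, so they are not set beside these.
mt-Co1: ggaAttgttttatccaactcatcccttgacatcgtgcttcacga
Gm29216: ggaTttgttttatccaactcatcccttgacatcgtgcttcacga

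All 7 copies together had 624 and 454 counts in knock-in and 875 and 291 in wild-type, which come on top of the mitochondrial mRNA counts and equal 0.244% and 0.229% of their number in knock-in and 0.269% and 0.231% in wild-type. Wild-type 2 was thus the lowest library for the copies too. Levels of the 5 copied genes, and of mt-Co1 and mt-Nd4 to the extent that they are copied, are uncertain, since identical reads of gene and copy cannot be told apart. The part of the copies in the low counts was not tested.

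The gene mt-Atp8 had no annotated copy, and all of its windows were found in no other gene, yet it had at most 1 count per library. It lies between mt-Co2 and mt-Atp6, which are 230 bases apart in the mitochondrial genome, while their copies Gm28661 and Gm10925 are separated by 233 bases (chromosome 1, 24614652 to 24614884) that carry no annotated gene. The sequence of that gap was not analysed here. The whole gene is printed because it is the shortest of the 13 and shares its last 43 bases, in capitals, with the start of mt-Atp6, where reads cannot be told apart (mitochondrial plus strand, 7766 to 7969, GRCm38).
mt-Atp8: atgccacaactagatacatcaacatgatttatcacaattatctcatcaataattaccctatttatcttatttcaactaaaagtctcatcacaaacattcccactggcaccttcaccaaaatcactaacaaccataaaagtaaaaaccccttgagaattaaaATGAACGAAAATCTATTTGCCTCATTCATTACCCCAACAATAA

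Among the nuclear genes, 85 of 98 had a mean level of at least 10 CPM per kilobase. The highest was Atp5b (ENSMUSG00000025393, chromosome 10, 128083273 to 128090391), which encodes the catalytic beta subunit of the ATP synthase, at 1354 and 1234 CPM per kilobase in knock-in and 1161 and 1334 in wild-type. The partner alpha subunit gene Atp5a1 followed, and then the complex IV genes Cox8a and Cox6a1. The level of Cox8a was 559 and 501 CPM per kilobase in knock-in and 549 and 720 in wild-type. Median levels by group were 57.6 and 52.8 CPM per kilobase in knock-in and 52.6 and 51.6 in wild-type for complex I subunits, and 148 and 140 in knock-in and 133 and 148 in wild-type for complex IV. They were 169 and 156 in knock-in and 150 and 145 in wild-type for the ATP synthase, and 15.6 and 15.3 in knock-in and 14.6 and 13.7 in wild-type for complex I assembly factors, which bind the complex only while it is built.

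The order of the nuclear genes by level was nearly the same in all libraries. Spearman's rho over the 98 genes was 0.998 between the knock-in libraries, 0.980 between the wild-type libraries and 0.979 to 0.998 between libraries of different lines, as a description over genes that share libraries. The 3 values that involve wild-type 2 were the 3 lowest.

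**Figure D2:**
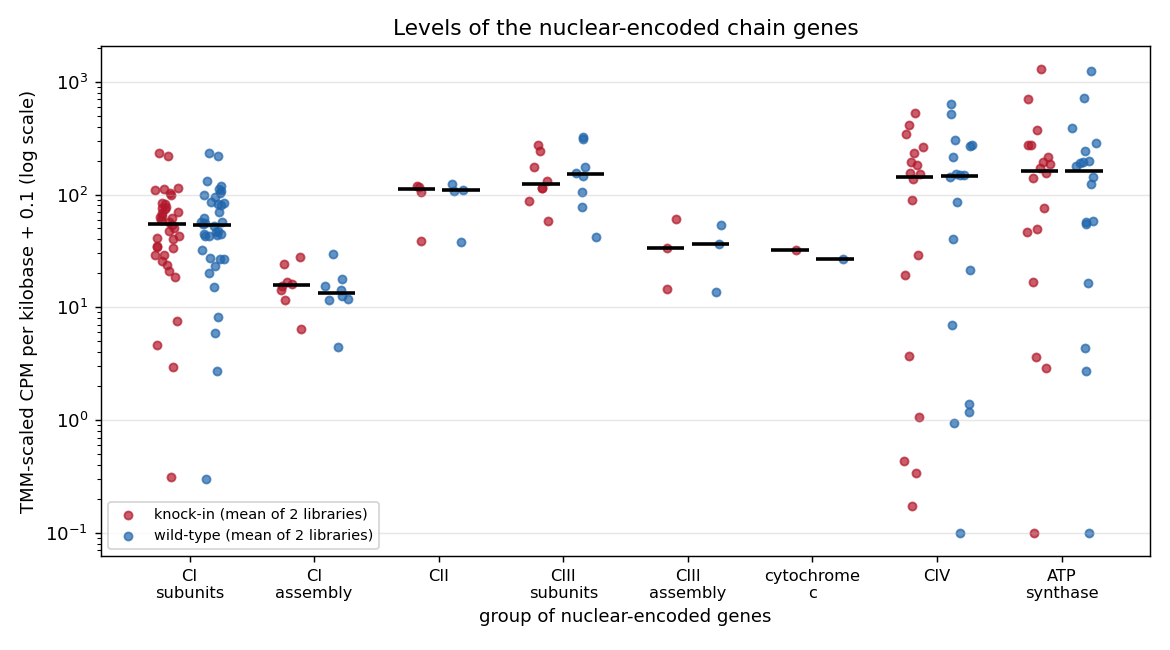
Each point is a nuclear-encoded gene, plotted by group on the x axis with its level in CPM per kilobase plus 0.1 on a log y axis, for the knock-in (left of each pair) and wild-type (right) as means of 2 libraries, with black bars at the medians. Catalytic and structural subunits of complexes II to IV and the ATP synthase lie mostly near or above 100, and complex I assembly factors lie lower, near 15.

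Low values among the nuclear genes need the same caution about shared sequence. Of the 98, 51 had at least 1 window of 50 bases that also occurred in another annotated gene, and 13 had under 70% of their windows to themselves. The proton-channel gene Atp5g2 had 12.6% and the ATP synthase gene Atp5l 15.2%, with mean levels of 279 and 16.4 CPM per kilobase. The median mean level was 60.1 CPM per kilobase for the 66 genes with at least 90% of windows to themselves, 78.0 for the 19 genes at 70% to 90%, and 49.9 for the 13 below 70%. Exons of 33 genes overlapped an exon of another gene. Unstranded counting sets aside reads where genes on opposite strands overlap, while the 2 strand columns together count such a read once for each gene. This sum was more than 1.5 times the unstranded count in 10 chain genes, at 15.7 times for Atp5l, 10.7 for Ndufab1, 7.93 for Ndufa11, 3.85 for the Atp5o identifier ENSMUSG00000022956, 2.61 for Uqcrb, 2.46 for mt-Nd6 and 2.44 for Cox4i1, and lower for Ndufb5, Cox5a and Ndufb6. The levels given for these 10 are those of the reads that were not set aside. The complex I gene Ndufb2 (chromosome 6, 39592574 to 39603382), with 94.6% of windows to itself but overlaps with Gm42420 on its own strand and with Braf and Gm16272 on the other, had 16 and 22 counts in knock-in and 32 and 13 in wild-type. The second Atp5o identifier (ENSMUSG00000116933), which shares exons with Donson and with the other Atp5o entry, had 0 CPM in all libraries.

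Between the lines no respiratory chain gene passed the test. With edgeR's quasi-likelihood test after the low-count filter and a threshold of 0.05 on the adjusted p, the count was 0 of 106 genes tested, beside 0.0658% of all 15191 genes. It was also 0 with DESeq2 (0.81% of all genes passed), with limma-voom (0.0263%) and with the GC correction (1.49%). Fits with a block for the replicate number, for which the labels name no pairing, called 1.3% of all genes and 1 chain gene. They called 3.12% and 2 chain genes together with the GC correction, and 3.35% and 4 chain genes with the numbers crossed. Without wild-type 1, 56 chain genes passed in edgeR, 27 as higher and 29 as lower in the knock-in, beside the 32.1% of all genes, and without wild-type 2 the count was 3, beside 4.39%. In the edgeR test on all 4 libraries, with no block, the lowest adjusted p was 0.335. An unadjusted p under 0.05 was reached by 5 of the 106 genes (Cox4i2, Cox6a2, Cox7b2, Cox6b2 and Ndufaf4), against 10.9% of all genes. The 2 lines did not overlap in 30 of the 106 genes, with 22 higher and 8 lower in the knock-in, a share of 28.3% beside 47.4% of all genes (23.4% higher and 23.9% lower). The 63 nuclear genes with a mean of at least 30 CPM had log2 fold changes of at most 0.434 in either direction.

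The median log2 fold change was -0.016 over the 96 nuclear genes tested, with 45 above and 51 below 0, beside 0.00098 over all genes tested. Complex I subunits had a median of -0.059 (17 above and 21 below 0), complex II -0.015 (2 and 2) and complex III subunits -0.10 (4 and 4). The median was -0.20 for complex IV (5 above and 12 below), -0.0083 for the ATP synthase (8 and 9), 0.21 for complex I assembly factors (6 and 2) and 0.067 for complex III assembly factors (2 and 1). The complex IV median was lower than the others. Of its 17 tested genes 5 lay entirely below wild-type, a share not far above the 23.9% of all genes. Without wild-type 2 the median was 0.0059 for complex IV, 0.087 for complex III subunits and 0.067 for complex I subunits, so the sign of these 3 medians rested on that library. The 5 genes were Cox4i2, Cox6a2, Cox6b2, Cox7b2 and Cox8c, less common members of their isoform sets. The first 4 are among the 5 chain genes with an unadjusted edgeR p under 0.05, which 10.9% of all genes reached. Cox6a2, Cox7b2 and Cox8c had at most 20 counts in any library. Cox6a2 and Cox7b2 passed the low-count filter through their wild-type counts alone. Cox7a1, the less common gene of its pair, overlapped between the lines. Cox6c and Cox7c lay entirely above wild-type.

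**Figure D3:**
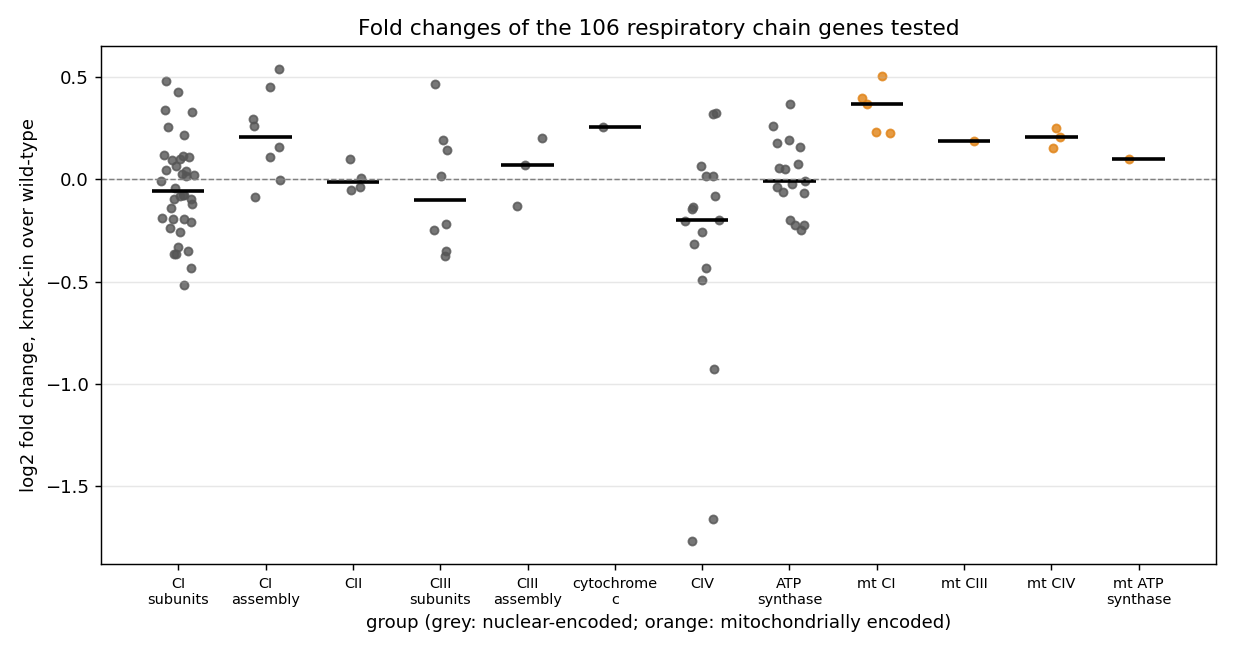
Each point is 1 of the 106 genes tested, with its log2 fold change of knock-in over wild-type on the y axis and its group on the x axis (grey for nuclear-encoded, orange for mitochondrially encoded genes), and black bars at the medians. The nuclear groups scatter around 0, the 10 mitochondrial genes lie between 0.098 and 0.50, and the 3 lowest points are Cox6a2, Cox7b2 and Cox4i2.

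Complex I oxidises NADH and passes its electrons to coenzyme Q. The accessory subunit gene Ndufa7 was the highest of its 38 nuclear genes per length, at 224.5 and 214 CPM per kilobase in knock-in and 207 and 262 in wild-type. Among genes with a mean of at least 5 CPM, Ndufc1 and Ndufa11 had the highest and lowest fold change. Ndufc1 had 26.8 and 25.5 CPM in knock-in and 24.0 and 13.4 CPM in wild-type, a log2 fold change of 0.48 with an SE of 0.26 (adjusted p = 0.498). Ndufa11 had 11.5 and 8.67 CPM in knock-in and 11.5 and 17.6 CPM in wild-type, a log2 fold change of -0.52 with an SE of 0.26 (adjusted p = 0.476). Only a small part of the reads at Ndufa11 was counted, as described above. In both genes wild-type 2 was the library farthest from the rest. Ndufc1 transcripts have 44.1% GC and Ndufa11 transcripts 58.2%. Whether the trend of wild-type 2 with GC, described below, had a part in these 2 values was not tested.

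A pair of core subunits of complex I, named here for their role, stood at higher levels. Ndufv1, which binds the flavin that takes up electrons from NADH, had 177 and 164 CPM in knock-in and 162 and 209 CPM in wild-type. Ndufs1, the largest iron-sulfur subunit, had 136 and 130 CPM in knock-in and 119 and 109 CPM in wild-type, and its groups did not overlap. Its edgeR adjusted p was 0.575.

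Of the 8 complex I assembly factors 4 were entirely higher in the knock-in and 0 entirely lower, beside 23.4% and 23.9% of all genes. Ndufaf4 (chromosome 4, 24898083 to 24905001), a factor of an early assembly step, had 23.6 and 22.2 CPM in knock-in and 19.4 and 12.1 CPM in wild-type, a log2 fold change of 0.54 with a 95% interval of 0.0069 to 1.07 (SE 0.23, edgeR adjusted p = 0.453). Its value was 0.23 without wild-type 2 and 0.23 with the GC correction, and its transcript has 39.5% GC, the lowest among the 84 nuclear chain genes of at least 10 CPM. Ndufaf8 stood at the other end of the group, with 22.0 and 21.6 CPM in knock-in and 19.6 and 26.7 CPM in wild-type.

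Complex II, succinate dehydrogenase, links the citric acid cycle to the chain and was the most even group. The flavoprotein gene Sdha had 346 and 332 CPM in knock-in and 310 and 324 CPM in wild-type, a log2 fold change of 0.098 with an SE of 0.14 (adjusted p = 0.798) although the groups did not overlap. The membrane anchor gene Sdhd had 152 and 142 CPM in knock-in and 143 and 163 CPM in wild-type. Fold changes of the 4 genes lay between -0.054 and 0.098 on the log2 scale, and none differed by more than 1.5-fold within either line.

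In complex III the core gene Uqcrc1 was highest, at 285 and 265.5 CPM per kilobase in knock-in and 277 and 364 in wild-type. Uqcrb, which encodes a small subunit next to a quinone site, had 34.6 and 27.3 CPM in knock-in and 25.9 and 18.9 CPM in wild-type, a log2 fold change of 0.46 with an SE of 0.21 (adjusted p = 0.459). The groups of Uqcrb did not overlap, but knock-in 2 and wild-type 1 differed by less than the libraries within each line did, and 56.6% of its windows were its own. Its value was 0.27 and 0.29 in single-strand counts, 0.25 without wild-type 2 and 0.72 without wild-type 1. Uqcr10 had 111 and 98.1 CPM in knock-in and 102 and 170 CPM in wild-type, a log2 fold change of -0.38 with an SE of 0.23 (adjusted p = 0.529), and 0.030 without wild-type 2. The assembly factor gene Uqcc2 had 31.3 and 29.9 CPM in knock-in and 24.1 and 29.1 CPM in wild-type, a log2 fold change of 0.20 with an SE of 0.18 (adjusted p = 0.662).

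Cytochrome c, the mobile electron carrier that also takes part in apoptosis, is encoded in somatic cells by Cycs. It had 106 and 94.9 CPM in knock-in and 100.1 and 68.2 CPM in wild-type, a log2 fold change of 0.26 with an SE of 0.20 (adjusted p = 0.619) that was -0.0075 without wild-type 2. Wild-type 1 lay between the knock-in libraries, and 71.5% of the windows of Cycs were its own.

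Among the ATP synthase genes with a mean of at least 5 CPM, Atp5mpl and Atp5d had the highest and lowest fold change. Atp5mpl (chromosome 12, 111961375 to 111966977), which encodes a small membrane-bound subunit, had 49.4 and 43.3 CPM in knock-in and 38.5 and 33.3 CPM in wild-type, a log2 fold change of 0.37 with an SE of 0.17 (adjusted p = 0.465). Its groups did not overlap, and it kept a positive value without either wild-type library. Atp5d, the delta subunit gene of the rotor, had 227 and 206 CPM in knock-in and 204 and 303 CPM in wild-type, a log2 fold change of -0.22 with an SE of 0.20 (adjusted p = 0.662) that was 0.077 without wild-type 2. The c-ring, which turns as protons pass, is made from 3 genes with identical mature products. Atp5g3 made up 54.6% and 53.5% of their summed level per kilobase in knock-in and 54.2% and 52.5% in wild-type. The share of Atp5g2 was 38.7% and 39.7% in knock-in and 38.8% and 39.6% in wild-type, with the caution on its shared sequence given above. The remaining 6.68% and 6.76% in knock-in and 7.03% and 7.87% in wild-type came from Atp5g1. These shares rest on the transcript lengths used, 4715 bases for Atp5g1, 731 for Atp5g2 and 723 for Atp5g3. Before division by length Atp5g1 had 235 and 206 CPM in knock-in and 206 and 309 CPM in wild-type. Atp5g2 had 211 and 188 CPM in knock-in and 176 and 241 CPM in wild-type, and Atp5g3 294 and 251 CPM against 244 and 316 CPM.

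Complex IV has isoforms that replace each other between tissues, and the stem cell libraries read mostly the common ones. Cox4i1 made up 98.4% and 98.9% of the summed level per kilobase of the 2 Cox4 genes in knock-in and 97.3% and 98.1% in wild-type. The common isoform Cox6a1 made up at least 99.8% against the heart and muscle isoform Cox6a2 in all 4 libraries. Cox8a had at least 99.7% of the Cox8 level, with Cox8b at 0 counts in 3 libraries. Cox7a1, known from heart and muscle, made up 12.4% and 12.4% of the level of the Cox7a1 and Cox7a2 pair in knock-in and 13.003% and 12.7% in wild-type. The testis isoform Cox6b2 made up 14.3% and 17.1% of the Cox6b pair in knock-in and 19.7% and 22.0% in wild-type, although 4 of the 5 testis markers were at 0.

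The 3 lowest log2 fold changes among the 106 genes were those of the less common isoforms Cox6a2, Cox7b2 and Cox4i2, none of which passed. Cox6a2 and Cox7b2 reached the low-count filter only through their wild-type counts, so their place in this order depended on the filter. Cox4i2 (ENSMUSG00000009876, chromosome 2, 152754173 to 152765037), an isoform known from lung and from cells short of oxygen, had 3.16 and 2.09 CPM in knock-in and 5.05 and 5.04 CPM in wild-type. On the log2 scale the knock-in over wild-type value was -0.93 with a 95% interval of -1.57 to -0.28 (SE 0.29, edgeR adjusted p = 0.335), from 77 and 39 counts in knock-in and 139 and 111 in wild-type. It passed as lower without wild-type 1 (log2 fold change -0.92, adjusted p = 0.00952) and without wild-type 2 (-0.94, adjusted p = 0.0353), in fits where 32.1% and 4.39% of all genes passed and the lone wild-type library was assumed to vary like the knock-in pair. It did not pass without knock-in 1 (-1.29, adjusted p = 0.542), without knock-in 2 (-0.67, adjusted p = 1.00) or with the GC correction (-0.71, adjusted p = 0.179).

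Cox6a2 (chromosome 7, 128205435 to 128206387) had 0.164 and 0.161 CPM in knock-in and 0.545 and 0.590 CPM in wild-type, which were 4 and 3 counts in knock-in and 15 and 13 in wild-type. Its log2 fold change was -1.77 (SE 0.62, adjusted p = 0.402). The summed muscle and heart markers were also lower in the knock-in, as given above. Most of that sum was Myh6, with 4.93 and 5.14 CPM in knock-in and 5.78 and 5.58 CPM in wild-type. Of the 6 markers Myh6, Myh7 and Tnnt2 were entirely lower in the knock-in, as were 23.9% of all genes tested. Ckm and Mb overlapped between the lines, and Actc1 was at 0. The log2 fold change of Myh6 was only -0.18 (SE 0.23). Myh7 had 0.164 and 0.214 CPM in knock-in and 0.581 and 0.636 CPM in wild-type. Tnnt2, with 0.123 and 0.0535 CPM in knock-in and 0.254 and 0.409 CPM in wild-type, did not reach the low-count filter. Whether other cells in the culture had a part in these values was not tested. Cox7b2, with 5 and 3 counts in knock-in and 20 and 10 in wild-type, and Cox8c likewise lay lower in both knock-in libraries.

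Cox6b2 (chromosome 7, 4751792 to 4753094) had 15.3 and 18.4 CPM in knock-in and 20.8 and 26.4 CPM in wild-type, a log2 fold change of -0.49 with an SE of 0.20 (adjusted p = 0.437). Its common partner Cox6b1 had 96.6 and 93.9 CPM in knock-in and 89.6 and 98.9 CPM in wild-type. Ndufa4l2 (chromosome 10, 127514967 to 127517154), known as a gene that responds to low oxygen, had 27.5 and 34.6 CPM in knock-in and 47.3 and 36.5 CPM in wild-type, a log2 fold change of -0.43 with an SE of 0.20 (adjusted p = 0.459). It passed as lower without wild-type 2 (log2 fold change -0.63, adjusted p = 8.7e-05), where 4.39% of all genes passed, while leaving out wild-type 1 gave -0.24 (adjusted p = 0.168). Knock-in 2 and wild-type 2 were close in Ndufa4l2, while its relative Ndufa4, a complex I gene by name and known as a subunit of complex IV, had 148 and 137 CPM in knock-in and 144 and 122 CPM in wild-type.

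In the other direction Cox7c, a small nuclear subunit of complex IV, had 205 and 168 CPM in knock-in and 143 and 155 CPM in wild-type. Its log2 fold change was 0.32 (SE 0.16, edgeR adjusted p = 0.476). The value was 0.37 without wild-type 2 and 0.27 without wild-type 1. Without knock-in 1 the value was 0.15, and without knock-in 2 it was 0.46. Its groups did not overlap, and 47.0% of its windows were its own, so part of its reads cannot be told from those of related sequences.

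**Figure D4:**
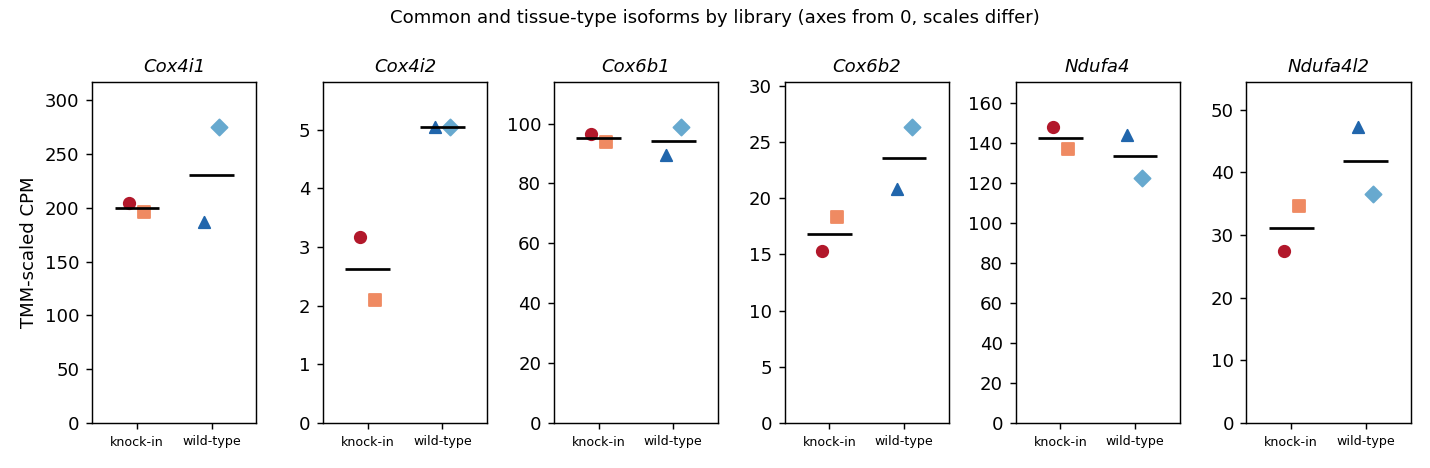
The panels plot TMM-scaled CPM, on linear axes from 0 with different scales, of Cox4i1, Cox4i2, Cox6b1, Cox6b2, Ndufa4 and Ndufa4l2, with 1 point per library, knock-in left (circle 1, square 2) and wild-type right (triangle 1, diamond 2), and bars at the means of 2. Cox4i2, Cox6b2 and Ndufa4l2 are lower in the knock-in without overlap of the lines, while the groups overlap for Cox4i1, Cox6b1 and Ndufa4.

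The deviation of wild-type 2 sorted the chain genes by base composition. The deviation was taken as the log2 level in wild-type 2 minus the mean log2 level of the other 3 libraries. Among nuclear chain genes of at least 10 CPM, 1 of 10 with under 45% GC was above 0, with a median of -0.30. At 45% to 50% GC 9 of 23 were above 0 (median -0.080), at 50% to 55% 20 of 27 (median 0.21), and at 55% or more 23 of 24 (median 0.45). Over all tested genes of at least 10 CPM the medians of the same 4 classes were -0.58, -0.19, 0.099 and 0.29. Spearman's rho of deviation and GC was 0.67 over the 84 nuclear chain genes and 0.81 over 8948 genes of all kinds, as descriptions across genes of the same libraries.

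The mitochondrial genes have 34.1% to 39.9% GC and deviated by -2.16 to -0.62, with a median of -0.92. Within them rho was 0.43 over 10 genes. The wild-type libraries differed by more than 1.5-fold in 27 of the 106 chain genes tested, all 10 mitochondrial genes and 17 nuclear ones, beside 21.3% of all genes. The knock-in libraries did so in 3 of the 106, beside 11.8% of all genes. Which of the wild-type libraries is closer to the cells was not tested.

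**Figure D5:**
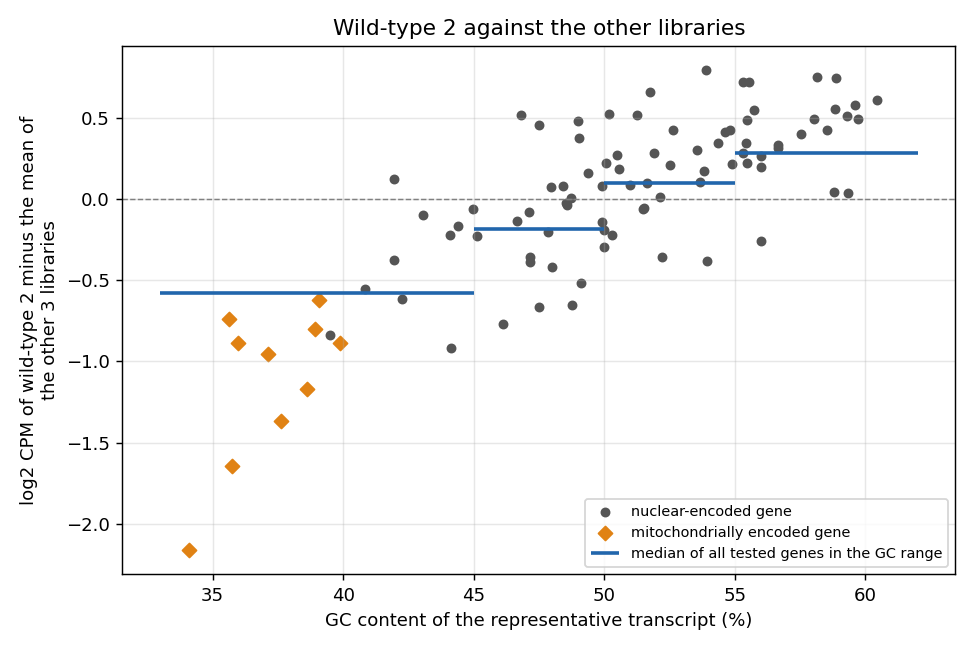
Each point is a chain gene, with the GC content of its representative transcript in percent on the x axis and the log2 CPM of wild-type 2 minus the mean log2 CPM of the other 3 libraries on the y axis (grey for nuclear, orange diamonds for mitochondrial genes), and blue lines mark the medians of all tested genes in 4 GC classes. Nuclear chain genes run from below 0 at low GC to above 0 at high GC, and the mitochondrial genes lie at the low end, between -2.16 and -0.62.

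Promoters of nuclear chain genes are known for sites of nuclear respiratory factor 1 (NRF1), ETS factors such as GABP, and YY1. RefSeq promoter windows of 300 bases (250 before to 50 after the start, GRCm38.p6) matched 80 of the 97 nuclear symbols. The NRF1 letters GCGCNTGCG, searched on both strands, occurred in 33.8% of the 80 genes and in 7.12% of all 27025 genes with a window. The ETS letters CCGGAAG occurred in 22.5% of the 80 and 9.93% of all, and the YY1 letters AAGATGGC in 15.0% and 3.19%. At least 1 of the 3 motifs was in 58.8% of the 80 and 17.9% of all genes. The chain promoters were also richer in GC, with a median of 58.4% beside 52.8% over all genes, so the shares mix motif and base composition. Among windows of 53.6% to 62.3% GC, the middle range of the chain genes, the NRF1 letters were in 31.0% of 42 chain genes and 10.5% of 6870 genes, the ETS letters in 19.0% and 15.2%, the YY1 letters in 16.7% and 4.38%, and at least 1 of the 3 in 57.1% and 26.5%. The 3 sets of letters do not contain one another, and a match of letters is not a measured site. The 27025 genes were not chosen by gene type or expression, so the contrast is not with genes of like activity. The NRF1 letters were shortened by 1 base after a first search.

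The 3 windows below are those of the most abundant chain genes per length that hold the NRF1 letters (Cox6a1, chromosome 5, 115348909 to 115349208, minus strand), the ETS letters (Cox8a, chromosome 19, 7217567 to 7217866, minus strand) and the YY1 letters (Atp5j2, chromosome 5, 145191492 to 145191791, minus strand), leaving out genes already shown. Capitals mark matches to any of the 3 motifs. Cox6a1 had 256 and 215 CPM in knock-in and 240 and 347 CPM in wild-type, and Atp5j2 had 197 and 176 CPM in knock-in and 167 and 209 CPM in wild-type, and neither passed the test.
Cox6a1: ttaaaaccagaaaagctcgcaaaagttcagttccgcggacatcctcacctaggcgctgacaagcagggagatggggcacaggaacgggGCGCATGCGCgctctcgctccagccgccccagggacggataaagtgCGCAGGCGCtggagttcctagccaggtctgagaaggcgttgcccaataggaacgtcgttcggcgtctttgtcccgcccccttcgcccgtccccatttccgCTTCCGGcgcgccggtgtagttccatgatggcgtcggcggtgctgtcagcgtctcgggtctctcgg
Cox8a: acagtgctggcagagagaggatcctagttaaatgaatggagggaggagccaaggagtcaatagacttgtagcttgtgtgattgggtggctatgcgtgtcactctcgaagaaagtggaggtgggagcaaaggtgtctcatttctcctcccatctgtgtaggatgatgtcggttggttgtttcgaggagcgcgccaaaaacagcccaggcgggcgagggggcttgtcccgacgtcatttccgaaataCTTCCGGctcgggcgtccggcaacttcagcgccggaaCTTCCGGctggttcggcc
Atp5j2: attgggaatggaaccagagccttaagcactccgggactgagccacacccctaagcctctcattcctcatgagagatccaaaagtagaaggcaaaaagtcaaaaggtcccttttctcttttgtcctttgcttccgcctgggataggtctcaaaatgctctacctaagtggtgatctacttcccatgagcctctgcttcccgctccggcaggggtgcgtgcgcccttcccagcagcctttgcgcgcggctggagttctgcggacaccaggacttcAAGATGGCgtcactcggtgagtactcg

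The regulators that bind or activate such promoters did not pass either. Of 13 listed regulators 12 were tested and 0 passed, with a median log2 fold change of 0.12 and 10 above 0. Nrf1 had 105 and 102 CPM in knock-in and 92.3 and 113 CPM in wild-type. Gabpa, the DNA-binding part of GABP, had 175 and 188 CPM in knock-in and 165 and 106 CPM in wild-type, so wild-type 2 alone was far from the rest. The coactivator gene Ppargc1a had 0 counts in all 4 libraries, and its relative Ppargc1b had 5.26 and 5.84 CPM in knock-in and 7.16 and 7.08 CPM in wild-type.

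Other lists of genes that serve the chain gave 0 genes past the threshold among those tested. The list of mitochondrial transcription and DNA maintenance (18 tested) had a median log2 fold change of 0.16 with 13 above 0, and its member Tfam, which packages mitochondrial DNA and starts its transcription, had 124 and 115 CPM in knock-in and 122 and 87.7 CPM in wild-type. The list of mitochondrial RNA processing (19 tested) had a median of 0.24 with 16 above 0, beside 7613 of all 15191 genes tested. In this list 12 genes were entirely higher in the knock-in, beside 23.4% of all genes. An unadjusted edgeR p under 0.05 was reached by 3, beside 10.9% of all genes. The median log2 ratio of wild-type 2 to wild-type 1 was -0.20 here and -0.31 in the transcription list, beside -0.051 over all genes. The part of wild-type 2 in these medians was not tested. Complex IV assembly (20 tested) had a median of 0.036, assembly of complexes II and V (8 tested) 0.0092, and coenzyme Q synthesis (13 tested) -0.041. The lists were chosen with earlier results of these data known, so their medians are given as description beside the 0.00098 of all genes.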

How the data were processed

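RNA of 2 knock-in and 2 wild-type libraries was sequenced from total RNA with an Illumina TruSeq kit, per the labels. The authors deposited raw counts of reads per gene in the table layout of STAR. Per the submitters' processing notes, Trim Galore, STAR 2.5.3a and build GRCm38 (mm10) were used, while the annotation release is not given in the sources used here. Among 54838 identifiers 54809 matched GENCODE M21, and the other 29 held 0.00107% of counts. The summary rows were kept out of library sizes: unmapped reads (2.38% to 4.39%), reads mapping to several places (3.80% to 4.46%), outside features (2.23% to 3.67%) and ambiguous between genes (5.96% to 6.38%). The strand columns were even (50.2% to 50.5% reverse), so the unstranded column was used. It does not separate genes that overlap on opposite strands.

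Tests used edgeR 4.0.16 in R 4.3.3 on the whole table, with TMM scaling, filterByExpr (minimum count 10), the quasi-likelihood F test, genotype as the only term and Benjamini-Hochberg adjustment over 15191 genes at 0.05. The SE is the absolute log2 fold change over the square root of F. Levels per kilobase divide TMM-scaled CPM by the length of a representative coding transcript, which also gave GC content. Windows of 50 and 100 bases of that transcript were searched in all annotated transcripts on both strands, and copies were aligned with blastn 2.17.0. On simulated counts of this comparison (15149 genes tested, no GC trend) 83% of 100 planted 2-fold changes and 100% of 4-fold changes were recovered. With a GC trend among 15336 genes, 52% of the 2-fold changes were recovered without and 72% with the GC correction. False calls numbered 6 with no GC trend, and with the trend 3 without and 6 with the correction. The simulated variation was a single set value for all genes, not estimated from these data. The rates need not hold for genes with a wider spread, such as the mitochondrial ones.

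The members and gene lists were chosen with earlier results of these data known. Genes named are all mitochondrial ones, any past the threshold, isoform sets and, per group, the highest level per kilobase and the highest and lowest fold change at a mean of at least 5 CPM. The NRF1 letters were shortened by 1 base after a first search. Other genes are named for a role, a shared sequence or after their values were seen. Alternatives were DESeq2 1.42.0 and its size factors, limma-voom (limma 3.58.1), scaling without mitochondrial genes, other filters, single-strand counts, each library left out, the replicate number as a block, and a GC correction by natural spline (5 degrees of freedom) used as an offset. The labels call the replicates biological and do not say what separates them, so p-values measure the spread between these libraries. The correlation of same-numbered deviations was -0.12. It cannot decide whether shared replicate numbers pair the libraries, since the wild-type libraries differed from each other more than the knock-in libraries did.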

Additional observations from a re-analysis of the deposited data

How the results depend on the processing

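The count of 0 chain genes past the threshold held with DESeq2, its size factors, limma-voom, other scaling, other filters, single-strand counts and the GC correction. It was 1 with the replicate block (mt-Nd6, log2 fold change 0.90, beside 1.3% of all genes), 2 with the GC correction and replicate block (Atp5mpl 0.54 and Ndufc2 0.46, beside 3.12%) and 4 with a crossed block, added after the data were seen (mt-Nd1, mt-Nd2 and mt-Nd6 higher and Cox4i2 lower, beside 3.35%). The labels name no pairing by replicate number. The count for the related lists was 0. It was 1 with the GC correction (beside 1.49% of all genes), 1 with that correction and the block (beside 3.12%), and 1 with the crossed block (beside 3.35%). Leaving out 1 library, with or without the GC correction, gave 0 to 56 chain genes and 0 to 36 genes of the related lists, with a median log2 fold change of -0.24 to 0.86 for mitochondrial and -0.15 to 0.20 for nuclear genes. The highest counts came without wild-type 1, and without wild-type 2 the counts were 3 and 1. The lone library left in a line is then assumed to vary like the other pair.

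Of 43 named genes with a fold change, 32 changed sign under at least 1 alternative and 11 did not. Under the GC correction log2 fold changes were -0.14 for mt-Cytb, -0.0065 for mt-Co1, 0.035 for Atp5d and -0.0074 for Cycs, and with that correction and the block they were -0.14 for mt-Cytb, 0.042 for Atp5d and -0.011 for Cycs. Leaving out 1 library gave -0.17 to 1.32 for mt-Nd1, -0.29 to 1.55 for mt-Nd2, -0.25 to 2.09 for mt-Nd6, -0.18 to 0.83 for mt-Co1, -0.21 to 0.58 for mt-Cytb, -0.48 to 0.21 for Atp5d, -0.70 to 0.18 for Uqcr10, -0.12 to 0.56 for Cycs, -0.63 to 0.13 for Ndufa4l2 and -0.00090 to 0.23 for Sdha. The cause was not tested. Few counts limit the precision for Cox6a2, Cox7b2, Cox8b and Cox8c.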
